A study of Mus musculus with 30 samples.

Results

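The 31 genes described here form the route by which a cell makes cholesterol, the SREBP circuit that sets that route, and the genes that carry, convert, store or export the product. They were taken from a written list of names by biochemical role, chosen with earlier results of these data known. All 31 were found among the 19737 genes of the expression table. The list holds 8 genes of the mevalonate and isoprenoid steps, 10 of the steps from squalene to cholesterol, 5 of SREBP control, 1 intracellular carrier (Stard4) and 7 of turnover. The first 2 groups make up 18 synthesis genes. Each of the 31 passed the filter on low values in every comparison.

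Whole-brain RNA came from 30 male C57BL/6N mice, 1 library each, in 6 groups of 5. Arid1b+/- mice (HT) carry 1 truncated copy of Arid1b, a subunit gene of the BAF chromatin remodelling complex, through a germline exon 5 mutation kept as a single line. They were compared with wild-type littermates (WT) at postnatal day 10 (P10), untreated, and at P120. The P120 mice had nursed, between P3 and P21, on dams that drank 0.2% saccharin water. It was given alone (WT-Veh and HT-Veh) or with 0.1 mg/ml fluoxetine (WT-Flx and HT-Flx). No P120 group was thus untreated, and age cannot be told apart from saccharin exposure, vehicle handling or collection. Fluoxetine is a selective serotonin reuptake inhibitor.

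The brain makes its own cholesterol, because lipoproteins of the blood do not pass the blood-brain barrier. Much of it is laid down in myelin during postnatal growth, by oligodendrocytes and with a supply from astrocytes, and in the adult a slow turnover goes on in which neurons hydroxylate cholesterol so that it can leave the brain. When sterols run low in the endoplasmic reticulum, SCAP carries SREBP to the Golgi, where it is cut and freed to activate the synthesis genes. INSIG proteins hold the SCAP and SREBP pair back when sterols are plentiful. When oxysterols are plentiful, the LXR receptors activate exporters such as ABCA1 and ABCG1.

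Values are normalized read counts as the authors deposited them, whose sums ran from 31578614 to 41801037 per library, and read depth itself is unknown. Differences are given on the log2(value + 1) scale with the standard error, from limma with Benjamini-Hochberg adjustment over all tested genes, and "passed the test" means an adjusted p under 0.05. In the P10 mice Arid1b ranged from 3164 to 3309 in WT and from 2162 to 2334 in HT. At P120, 2 libraries went against their labels on this gene, the library labelled HT-Veh 2 at 3361 and the library labelled WT-Veh 2 at 2320, and the counts of the 31 genes past the test are given with and without them. How strongly a gene's value depended on its GC content also varied between libraries. For each library, the deviation of log2 values from their mean over the libraries of its age was set against GC content. The slope, per 10% of GC, lay between -0.184 and 0.047 at P10. At P120 it lay between -0.271 and 0.2 in WT-Veh and between -0.402 and 0.438 in HT-Veh. It lay between 0.3 and 0.72 for HT-Flx libraries and between -0.42 and -0.323 for WT-Flx libraries. These slopes do not compare P10 with P120. Across the 31 genes the age difference ran with GC content, with Pearson's r = 0.49 in WT and 0.60 in HT. Across all genes r was 0.23 and 0.34. Values corrected for GC content and for length of the transcripts, an alternative chosen after seeing the data, are therefore given beside the counts, and for the age differences beside each gene past the test in which they lay over 1.5 times from the uncorrected value.

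The synthesis genes were lower in the adult brain than at P10, and most turnover genes were higher. In WT, 20 of the 31 genes were lower in WT-Veh than at P10 and 9 were higher. Among all 17927 genes tested, 58.3% passed the test, 29.4% as lower and 28.9% as higher, so that a large share of the transcriptome differed with age. The 20 of 31 as lower stood against a background of 29.4%, as a description only, since the list was made with earlier results known. The median log2 fold change was -0.52 over the 31 genes and -0.01 over all tested genes. All 8 genes of the mevalonate and isoprenoid steps were lower, as were 9 of the 10 genes from squalene to cholesterol, whereas 5 of the 7 turnover genes and 4 of the 5 SREBP control genes were higher. Without the WT-Veh 2 library, 19 genes were lower and 8 higher, with 10056 of all 17936 genes past the test. After GC and length correction the counts were 20 and 8, against 59.4% of all genes. The values of the 5 WT-Veh mice and the 5 P10 mice did not overlap for 26 of the 31 genes and for 45.6% of all genes, and likewise for 26 and for 47.7% without WT-Veh 2.

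**Figure D1:**
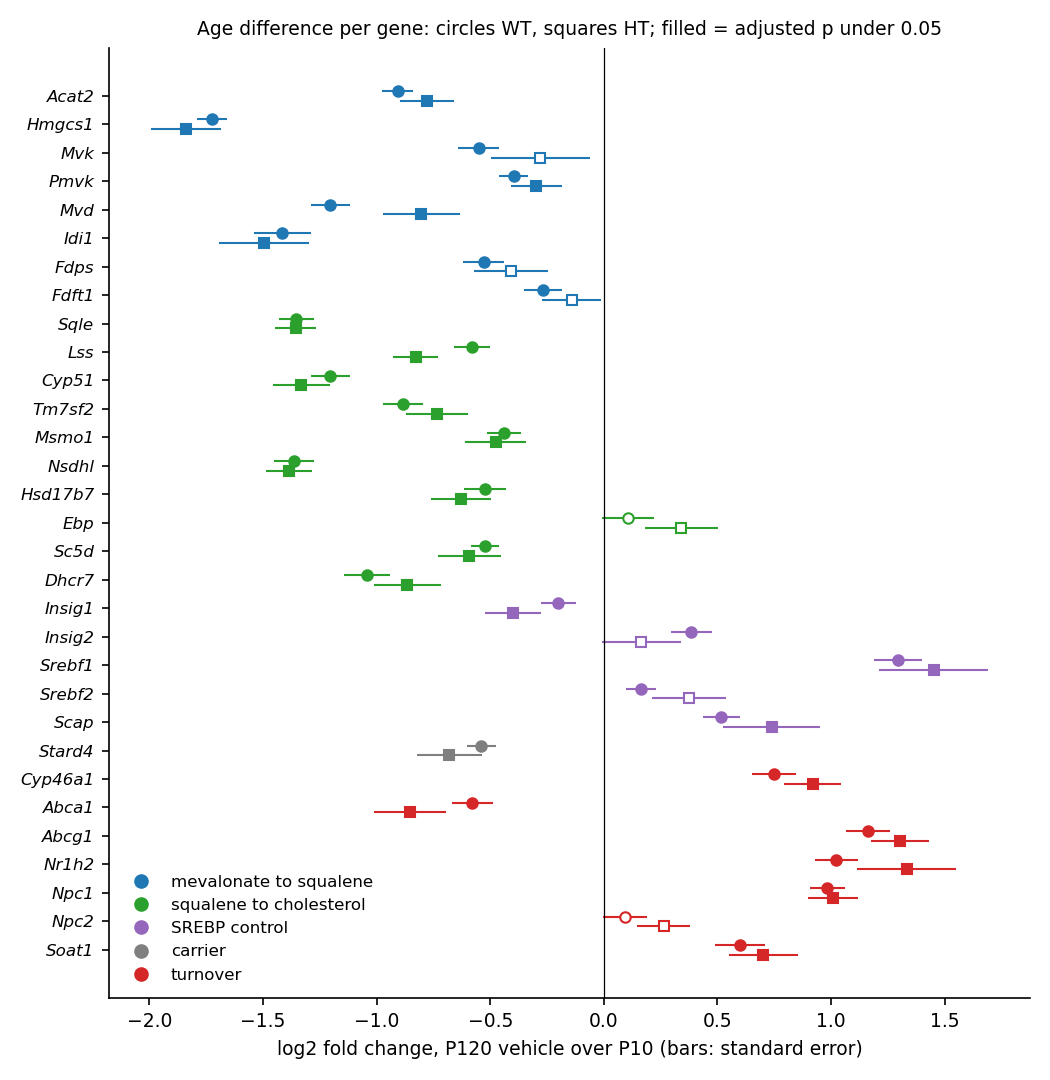
Log2 fold change of P120 vehicle over P10 for each of the 31 genes in WT (circles) and HT (squares), with standard errors, 5 mice per group, colored by role and filled where the adjusted p is under 0.05. The synthesis genes lie to the left of 0 except Ebp (0.11 in WT), and the turnover genes lie to the right except Abca1 (-0.58 in WT).

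The early steps condense acetyl-CoA units into mevalonate and build the isoprenoid chains up to squalene. Hmgcs1, the cytosolic HMG-CoA synthase that commits acetoacetyl-CoA to the pathway, had normalized counts of 17674, 18769, 19230, 20101 and 18104 in the 5 P10 WT mice and 6129, 5776, 4991, 5624 and 5941 in the 5 WT-Veh mice. No adult value came near a P10 value. The log2 fold change was -1.72 ± 0.07 (SE), a level 3.30-fold higher at P10 than at P120 (limma, adjusted p = 1.19e-09). Idi1, which isomerizes isopentenyl diphosphate, measured 2794, 3073, 3189, 2956 and 3237 at P10 and 1255, 1149, 784.9, 1218 and 1405 in WT-Veh. It fell by 1.42 ± 0.13 on the log2 scale (limma, adjusted p = 9.77e-07), and the groups did not overlap. Mvd, the mevalonate diphosphate decarboxylase, stood at 1449, 1626, 1525, 1631 and 1476 against 589.3, 671.5, 801.4, 678.5 and 617.2 and fell by 1.20 ± 0.09 on the log2 scale (limma, adjusted p = 1.25e-07).

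The other early genes fell less. Acat2, the cytosolic acetoacetyl-CoA thiolase, fell by 0.91 on the log2 scale. The kinases Mvk and Pmvk, which add phosphates to mevalonate, fell by 0.55 and 0.40 on that scale (by 0.88 and 0.64 with the correction), and Fdps, which makes farnesyl diphosphate, fell by 0.53. Fdft1, squalene synthase, had the smallest difference of the 8 genes at -0.27 ± 0.08 (limma, adjusted p = 0.0136), and it was the only one of the 8 whose P10 and WT-Veh ranges overlapped, 3127 to 3752 against 2491 to 3270. The neighbouring gene Acat3 is a close copy of Acat2 with a mean of 89.28 over the libraries, and Fdft1 overlaps Ctsb (mean 17043) on the opposite strand.

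From squalene on, the ring is closed and then trimmed to cholesterol. Sqle, squalene epoxidase, a control point after squalene, had values of 4494, 4722, 4738, 5049 and 4341 at P10 and 1731, 1585, 1861, 2113 and 1872 in WT-Veh. The difference was -1.35 ± 0.08 (limma, adjusted p = 2.06e-08), with no overlap between the ages. Nsdhl, one of the enzymes that removes the methyl groups at C-4, went from 1195, 1159, 1171, 1285 and 1073 to 492.9, 519.7, 461.2, 418.5 and 399.1, a log2 fold change of -1.36 ± 0.09 (limma, adjusted p = 4.89e-08). Cyp51, the lanosterol demethylase, went from 3741, 4184, 4282, 4725 and 3943 to 1795, 1544, 2045, 1794 and 1894, a log2 fold change of -1.20 ± 0.08 (limma, adjusted p = 1.10e-07).

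Dhcr7, which reduces 7-dehydrocholesterol at the end of the route, was at 2207, 2368, 2371, 2438 and 2148 at P10 and at 978.1, 1313, 1357, 1034 and 967.0 in WT-Veh, a log2 fold change of -1.04 ± 0.10 (limma, adjusted p = 2.06e-06). Tm7sf2, a sterol C-14 reductase, fell by 0.88 on the log2 scale, and Lss, the cyclase that forms lanosterol, fell by 0.58 (by 0.38 with the correction). Hsd17b7, the C-3 ketone reductase of C-4 demethylation, and Sc5d, which introduces the C-5 double bond, each fell by 0.52, and Msmo1, the C-4 methyl oxidase, fell by 0.44. Hsd17b7 was at -0.35 with the correction. Ebp, the sterol isomerase, was the exception among the 10 genes, with 487.1 to 589.9 at P10 and 473.4 to 753.8 in WT-Veh. Its log2 fold change of 0.11 ± 0.11 did not pass the test (limma, adjusted p = 0.439). Cyp51 overlaps Akap9 (mean 3375) on the opposite strand and Tm7sf2 overlaps Vps51 (mean 2519) on the same strand.

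Since these genes moved together, the letters upstream of them were read from the RefSeq promoter windows of GRCm38.p6, which run from 250 bases before to 50 bases after each listed start and had an entry for 25 of the 31 genes. Fdps, Fdft1, Sqle, Stard4, Abcg1 and Npc1 had none. The 250 upstream bases are printed for Hmgcs1, Idi1 and Nsdhl, which had the largest age differences among the synthesis genes with an entry, and for Cyp46a1 as a turnover gene that moved the other way. They lie on the plus strand at chr13:119690101-119690350, chr13:8885356-8885605, chrX:72918271-72918520 and chr12:108334066-108334315. Capitals mark CCAAT, or ATTGG on the other strand, which is the letter pattern bound by NF-Y, a partner of SREBP, and TCACNCCAC, a form of the sterol regulatory element (SRE).
Hmgcs1: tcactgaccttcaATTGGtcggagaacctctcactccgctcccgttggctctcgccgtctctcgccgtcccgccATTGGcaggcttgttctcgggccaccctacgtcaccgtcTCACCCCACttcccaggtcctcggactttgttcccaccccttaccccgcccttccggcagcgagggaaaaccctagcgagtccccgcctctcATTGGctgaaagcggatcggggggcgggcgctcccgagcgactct
Idi1: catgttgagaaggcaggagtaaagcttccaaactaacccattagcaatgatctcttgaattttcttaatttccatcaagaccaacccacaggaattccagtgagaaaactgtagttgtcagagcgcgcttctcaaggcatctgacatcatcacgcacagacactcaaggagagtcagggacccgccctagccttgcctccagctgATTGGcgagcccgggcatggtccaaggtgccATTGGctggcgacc
Nsdhl: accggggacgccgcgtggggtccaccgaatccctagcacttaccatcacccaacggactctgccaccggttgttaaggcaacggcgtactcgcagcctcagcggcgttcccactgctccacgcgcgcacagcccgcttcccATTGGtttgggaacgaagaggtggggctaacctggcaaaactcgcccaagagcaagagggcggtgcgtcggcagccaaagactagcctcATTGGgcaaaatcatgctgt
Cyp46a1: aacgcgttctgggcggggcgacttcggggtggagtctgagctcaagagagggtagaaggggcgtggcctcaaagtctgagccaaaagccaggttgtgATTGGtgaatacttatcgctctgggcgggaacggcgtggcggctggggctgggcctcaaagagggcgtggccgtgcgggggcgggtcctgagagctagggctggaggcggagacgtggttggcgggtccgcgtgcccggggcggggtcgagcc

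TCACNCCAC, searched on both strands, occurred in the window of 1 of the 25 genes, Hmgcs1, where it starts 137 bases upstream, and in the windows of 1.44% of the 27025 genes with an entry. CCAAT, searched likewise, occurred in 21 of the 25 genes and in 41.1% of all genes. By role it was in 14 of 15 synthesis genes, all but Acat2, and in 3 of 5 turnover genes (Cyp46a1, Npc2 and Soat1). The GC box GGGCGG was in 23 of the 25 genes and 38.2% of all genes, and the DR4 element of LXR, a direct repeat with a spacer, in 0 of the 25 and 0.0148% of all genes. The 4 patterns do not contain one another. These are matches of letters only, and they do not show that a factor binds.

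Of the 5 SREBP control genes Srebf1, Scap, Insig2 and Srebf2 were higher and Insig1 was lower, before the correction. Srebf1, whose SREBP-1 products act mostly on fatty acid genes, had 1504, 1502, 1623, 1833 and 1331 normalized counts at P10 and 3804, 3863, 4167, 4358 and 2995 in WT-Veh. All adult values exceeded all P10 values, and the log2 fold change was 1.3 ± 0.11, or 2.46-fold higher (limma, adjusted p = 4.58e-07). Scap rose by 0.52 (by 0.19 with the correction) and Insig2 by 0.39, and neither overlapped between the ages. Srebf2, whose product SREBP-2 acts mostly on the cholesterol genes, measured 9433, 9530, 9437, 10092 and 9254 at P10 and 9600, 11658, 11404, 11177 and 9834 in WT-Veh. Its difference of 0.16 ± 0.07 was just past the threshold (limma, adjusted p = 0.0494), fell short of it in 8 of the 10 fits that left out 1 library, and had the opposite sign after GC and length correction, at -0.15 (adjusted p = 0.0104). Insig1, itself a classic SREBP target, was lower by a log2 fold change of -0.20 ± 0.08 (limma, adjusted p = 0.0414) before the correction and at -0.02 after it (adjusted p = 0.801). It lost its call in 7 of the 10 fits that left out 1 library. Srebf1 overlaps Rai1 (mean 4397) on the opposite strand.

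Stard4, which moves free cholesterol between membranes, was lower. It went from 1530, 1617, 1664, 1620 and 1470 to 1015, 1031, 1138, 1120 and 1131, a log2 fold change of -0.54 ± 0.06 (limma, adjusted p = 1.23e-05), or -0.34 with the correction.

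Among the turnover genes, Cyp46a1, the neuronal cholesterol 24-hydroxylase, stood at 4060, 4236, 4073, 3808 and 4779 at P10 and at 7751, 8436, 7081, 6023 and 6129 in WT-Veh, a log2 fold change of 0.75 ± 0.10 (limma, adjusted p = 2.58e-05). Abcg1, an exporter of cholesterol to lipoproteins, rose from 1438, 1313, 1268, 1236 and 1618 to 2547, 3004, 3543, 3240 and 3051, by 1.16 ± 0.10 (limma, adjusted p = 5.13e-07). Both genes were separate between the ages. Nr1h2, which encodes LXR beta, rose by 1.02, and Npc1, which exports cholesterol from lysosomes, rose by 0.98. Soat1, which esterifies cholesterol for storage, rose by 0.60 and also had no overlap.

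Abca1, the exporter that loads apolipoproteins, differed from its relative Abcg1 in direction. It was at 2181, 2095, 2240, 2358 and 2098 in the P10 mice and at 1610, 1523, 1153, 1493 and 1614 in WT-Veh, a log2 fold change of -0.58 ± 0.09 (limma, adjusted p = 0.000117), or -0.31 with the correction. Npc2, the soluble partner of NPC1, had 1694 to 1939 at P10 and 1778 to 2558 in WT-Veh according to the lowest and highest mice, and its log2 fold change of 0.09 ± 0.10 did not pass (limma, adjusted p = 0.422). Npc1 overlaps Rmc1 (mean 1089) on the opposite strand.

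**Figure D2:**
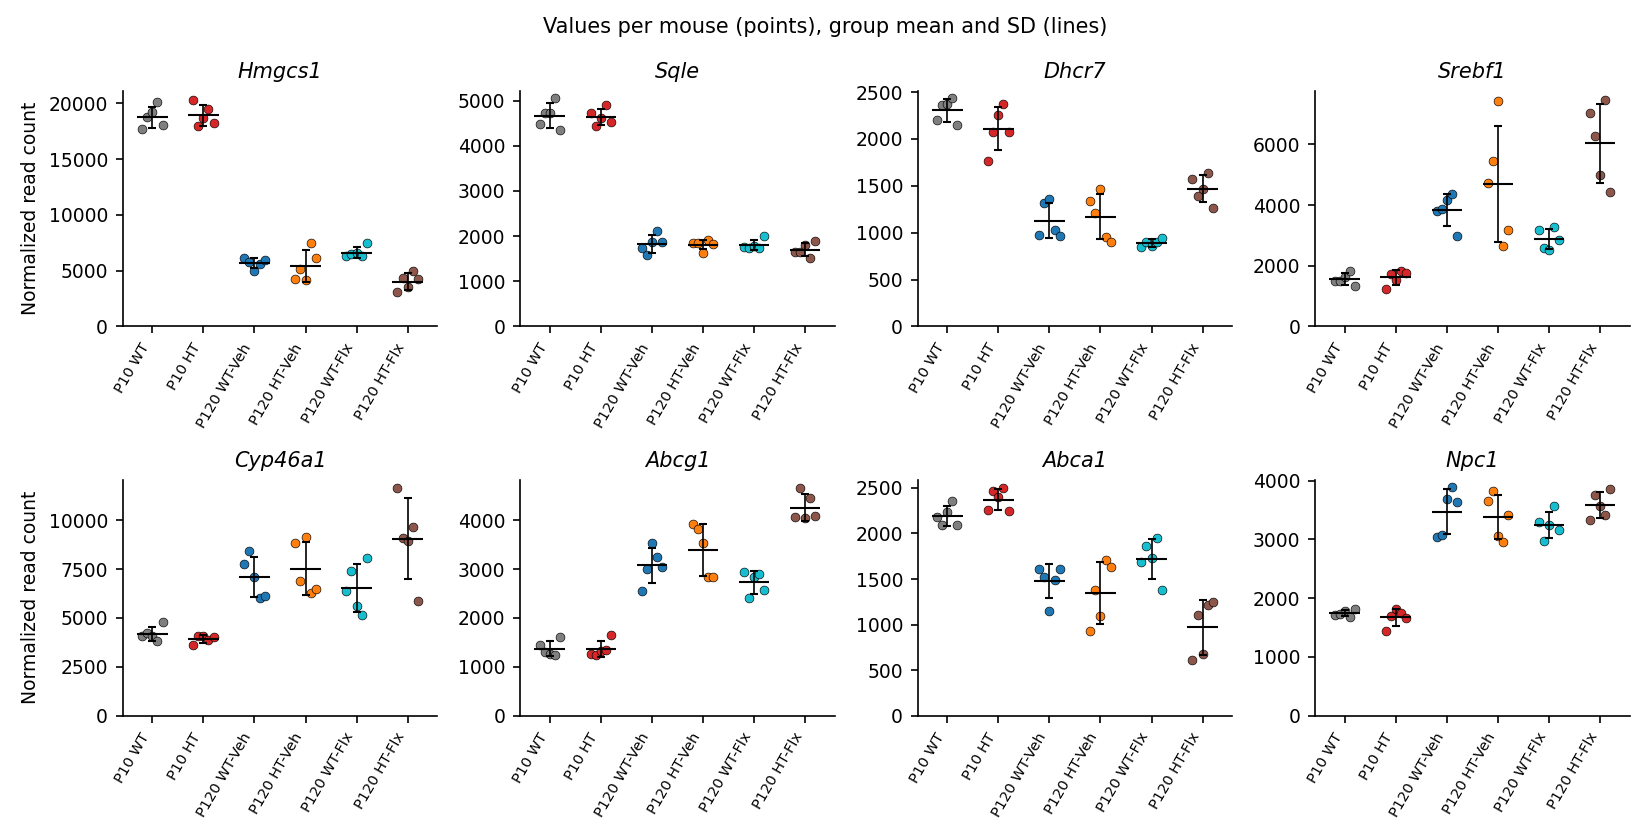
Normalized read counts of 8 genes in each of the 30 mice (points), with group mean and SD (lines), by group. Hmgcs1, Sqle, Dhcr7 and Abca1 sit lower in all 4 P120 groups than in both P10 groups, and Srebf1, Cyp46a1, Abcg1 and Npc1 sit higher.

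In HT mice most synthesis genes were again lower and most turnover genes higher. Of the 31 genes 17 were lower and 7 higher in HT-Veh than in P10 HT, against 51.1% of all genes passing the test (25.3% lower, 25.8% higher). Without the HT-Veh 2 library the counts were 16 and 7, with 8221 of all 18015 genes past the test. The groups did not overlap for 20 of the 31 genes and for 40.2% of all genes, and for 21 and 41.5% without HT-Veh 2. Hmgcs1 was at 20304, 17994, 18701, 19503 and 18280 in P10 HT and at 4255, 5134, 4128, 7468 and 6144 in HT-Veh, a log2 fold change of -1.84 ± 0.15 (limma, adjusted p = 1.08e-06). Sqle fell by 1.36, Nsdhl by 1.38 and Idi1 by 1.5, while Srebf1 rose by 1.45, Nr1h2 by 1.33, Abcg1 by 1.3 and Cyp46a1 by 0.92. Mvk, Fdps, Fdft1, Insig2 and Srebf2, which passed in WT, did not pass in HT, with log2 fold changes of -0.28, -0.41, -0.14, 0.17 and 0.37. Insig1 passed at -0.40 but was at -0.13 with the correction (limma, adjusted p = 0.238). Pmvk passed at -0.30 but lost its call in 8 of the 10 fits that left out 1 library. After GC and length correction 18 genes were lower and 8 higher, against 55.7% of all genes, with Mvk at -0.78, Fdps at -0.63 and Npc2 at 0.34 past the test and Fdft1 at -0.07 and Srebf2 at -0.08 not past it. Several differences moved by over 1.5 times while the genes passed both times. Nr1h2 went from 1.33 to 0.81, Cyp46a1 from 0.92 to 0.54, Scap from 0.74 to 0.23, Abca1 from -0.85 to -0.45, Stard4 from -0.68 to -0.39, Lss from -0.83 to -0.54, Hsd17b7 from -0.63 to -0.36 and Sc5d from -0.59 to -0.30. The differences of Mvd (-0.80 to -1.27) and Pmvk (-0.30 to -0.67) grew.

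The difference between the genotypes in the age effect was itself tested in the 20 untreated and vehicle mice. It passed for 0 of the 31 genes and 0% of all genes (again 0 of the 31 without the libraries labelled HT-Veh 2 and WT-Veh 2), and the unadjusted p was under 0.05 for 0 of the 31 and for 3.4% of all genes (limma). For Hmgcs1 the difference was -0.12 on the log2 scale, with a 95% confidence interval of -0.47 to 0.24. For Srebf1 it was 0.16 (-0.43 to 0.74), for Cyp46a1 0.17 (-0.16 to 0.50) and for Mvd, the furthest from 0, 0.40 (-0.01 to 0.81). Differences within these intervals cannot be told from 0 with these mice.

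Across the whole series, 12 of the 31 genes were lower in each of the 20 P120 mice than in any of the 10 P10 mice, and 6 were higher in each, against 23.7% of all genes with no overlap in either direction. The 12 were Acat2, Hmgcs1, Idi1, Sqle, Lss, Cyp51, Nsdhl, Hsd17b7, Sc5d, Dhcr7, Stard4 and Abca1. The 6 were Srebf1, Cyp46a1, Abcg1, Nr1h2, Npc1 and Soat1. The 20 mice cover both genotypes and both treatments. Without the vehicle libraries numbered 2 the counts were again 12 and 6, against 23.9% of all genes.

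A single value per mouse, the mean log2 value of the 18 synthesis genes minus that of the 7 turnover genes, was used to describe the balance of the groups of genes, with no test. It was 0.373 ± 0.079 (SD, n = 5) in P10 WT and 0.396 ± 0.019 in P10 HT. In the adults it was -1.026 ± 0.033 in WT-Veh, -1.044 ± 0.120 in HT-Veh, -0.952 ± 0.100 in WT-Flx and -1.168 ± 0.092 in HT-Flx (SD, n = 5 each). Without the libraries numbered 2 it was -1.026 ± 0.038 in WT-Veh and -1.007 ± 0.099 in HT-Veh (SD, n = 4 each). The lowest P10 value was 0.239 and the highest P120 value -0.783, so the ages were far apart. From P10 WT to WT-Veh the difference was -1.398, made of a fall of the synthesis mean from 11.109 to 10.287 and a rise of the turnover mean from 10.736 to 11.312. Within P120 the synthesis means of the 4 groups lay between 10.253 and 10.306, while the turnover means ran from 11.205 in WT-Flx to 11.473 in HT-Flx. All of these means rest on the deposited values, without the GC and length correction. Between HT-Flx and WT-Flx the median log2 fold change of the 7 turnover genes was 0.46 before that correction and 0.22 after it. The part of GC content in the spread of the turnover means was not tested.

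**Figure D3:**
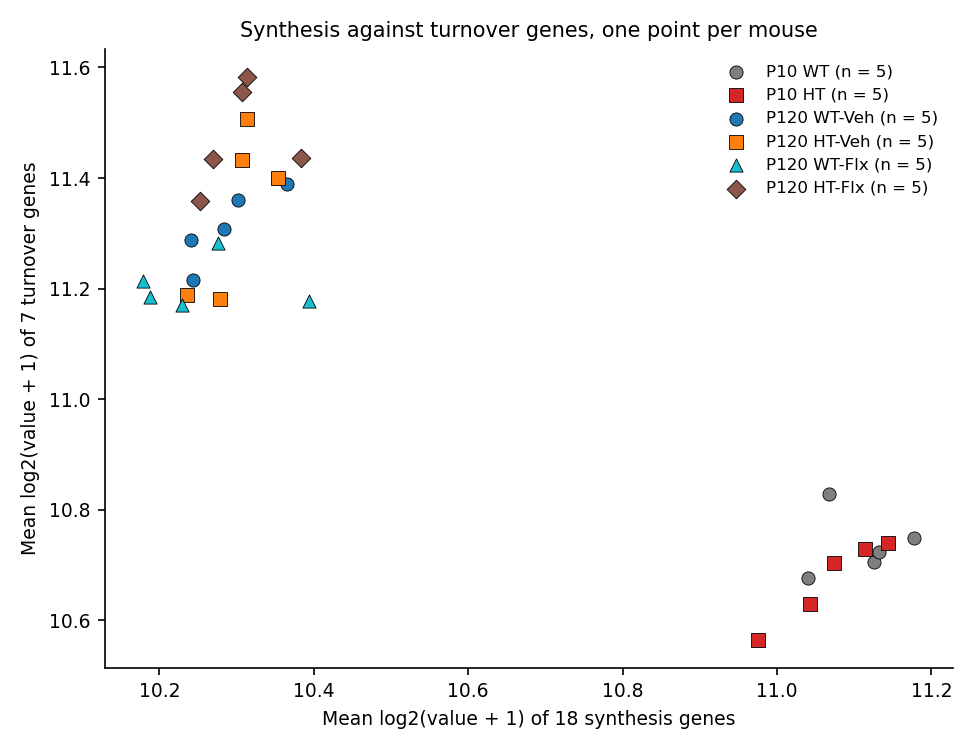
Mean log2(value + 1) of the 18 synthesis genes (horizontal) against that of the 7 turnover genes (vertical) for each of the 30 mice, marked by group. The 10 P10 mice sit at lower right, with synthesis means of at least 10.975, and the 20 P120 mice at upper left, with synthesis means of at most 10.394.

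Cell type markers moved with age as well, in WT against 58.3% of all genes past the test (28.9% higher, 29.4% lower). In bulk RNA fewer cells of a type and less RNA per cell cannot be told apart. The summed level of 12 mature oligodendrocyte and myelin genes ran from 135260 to 261570 in P10 WT and from 187128 to 275830 in WT-Veh, with 5 of the 12 higher and 2 lower. The lower ones, named here after their values were seen, were the cerebroside enzyme Ugt8a (-1.16) and the sulfatide enzyme Gal3st1 (-0.35). They went against the direction of the list, whose median log2 fold change was 0.38. For 7 astrocyte genes the sum was 57303 to 64779 at P10 and 71112 to 100806 in WT-Veh (3 higher, 1 lower), and for 6 neuron genes 116304 to 130937 and 153416 to 166922 (3 higher, 0 lower). Microglia (6 genes) went from 4217 to 5800 at P10 to 4999 to 7163 (3 higher, 1 lower). Endothelium (4 genes) went from 6712 to 7320 to 5272 to 6799 (1 higher, 3 lower), and erythroid genes (3) from 6581 to 8203 to 3098 to 7506 (0 higher, 1 lower). The 4 proliferation genes summed to 2222 to 3407 at P10 and 74.1 to 145.2 in WT-Veh, and all 4 fell. No marker was at 0 in all libraries of a group, and the part of these shifts in the results above was not tested.

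Genes beside the route were mixed in WT, where 58.3% of all genes passed the test (28.9% higher, 29.4% lower). Of 19 other sterol transport and lipoprotein receptor genes, 7 were higher and 6 lower at P120. Nr1h3, which encodes LXR alpha, rose by 1.86, Stard3, a late endosomal sterol carrier, by 1.13 and Abca2, a myelin-rich transporter, by 1.09, while Lrp8, a reelin and lipoprotein receptor, fell by 1.25, Gramd1c by 0.95 and Scarb1 by 0.65. Among 4 oxysterol enzymes tested of 5 listed, Cyp27a1, the sterol 27-hydroxylase, rose by 1.73 and Hsd3b7 by 0.38. Of 11 fatty acid synthesis genes, the other branch under SREBP, 4 were higher and 4 lower. Scd1 rose by 0.60, Acss2 by 0.32 and Fasn by 0.23, the last with -0.01 after GC and length correction, and Elovl6 fell by 0.87, Acaca by 0.62 and Fads2 by 0.54.

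Of 9 genes of the non-sterol isoprenoid branch, which share farnesyl diphosphate with the sterol route, 2 were higher (Coq2 at 0.75 and Dhdds at 0.42) and 3 lower (Pggt1b at -0.87, Pdss2 at -0.30 and Nus1 at -0.30). Of 7 tested genes of SREBP processing and sterol-regulated degradation, 2 were higher and 2 lower, against the same 58.3% of all genes. The site-1 protease Mbtps1 was among the higher at 0.16, and the site-2 protease Mbtps2 at -0.82 and Rnf139 at -0.34 were lower. With the correction Nus1, Pdss2, Rnf139, Hsd3b7 and Fasn did not pass, while other listed genes came to pass. The corrected counts were 8 higher and 6 lower for other transport and 1 and 0 for oxysterol enzymes. They were 5 and 4 for fatty acid synthesis, 2 and 2 for the isoprenoid branch and 4 and 1 for SREBP processing, against 59.4% of all genes. The median log2 fold changes of the 5 lists lay between -0.22 and 0.15, next to -0.01 over all genes.

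The study asked what loss of 1 Arid1b copy does to the brain transcriptome in pups and adults. At P10, Arid1b itself differed by -0.55 ± 0.04 (limma, adjusted p = 1.52e-05), and of the 31 genes 0 passed the test, as did 0.0224% of all genes. At an unadjusted p under 0.05 there were 5 of the 31 and 12.6% of all genes. These 5 were Nr1h2 at -0.22 (95% confidence interval -0.35 to -0.08), Mvd at -0.22 (-0.43 to -0.01), Lss at 0.17 (0.04 to 0.30), Insig1 at 0.16 (0.04 to 0.27) and Abca1 at 0.11 (0.01 to 0.21). Hmgcs1 differed by 0.01 (-0.08 to 0.11), Sqle by -0.01 (-0.10 to 0.09) and Srebf2 by -0.08 (-0.17 to 0.01), so the intervals held only small differences for these genes.

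In vehicle-treated adults, HT-Veh and WT-Veh were compared in replicates 1, 3, 4 and 5, the libraries the study lists for this comparison. Its figure legend gives 5 mice per group. Of the 31 genes 0 passed, as did 0% of all genes, and at an unadjusted p under 0.05 there were 0 of the 31 and 1.29% of all genes (limma). With all 5 libraries in each group the count was again 0. The intervals were wide. Hmgcs1 differed by -0.09 (95% confidence interval -0.53 to 0.36), Srebf1 by 0.13 (-0.51 to 0.76) and Cyp46a1 by 0.17 (-0.21 to 0.56).

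The HT-Veh mice were uneven among themselves. Srebf1 was at 4725, 5435, 7431, 2646 and 3167 in HT-Veh 1 to 5, and Scap at 7022, 6544, 9300, 3865 and 4060. Idi1 ran the other way, at 665.1, 938.7, 920.3, 1477 and 1522. HT-Veh 4 and 5 thus had the lowest Srebf1 and Scap and the highest Idi1 of the group. The same 2 libraries had GC slopes of -0.402 and -0.339, while the other 3 had 0.438, 0.137 and 0.21.

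Fluoxetine against vehicle gave 0 of 31 genes past the test in HT and 0 of 31 in WT, as did 0% of all genes in each, and 0 of 31 in both without the vehicle libraries numbered 2. Unadjusted p under 0.05 was reached by 8 of the 31 in HT (23.1% of all genes) and 9 of the 31 in WT (25.2%). The values pointed opposite ways in many genes. Srebf1 differed by 0.44 (95% confidence interval -0.11 to 0.99) in HT and by -0.41 (-0.65 to -0.17) in WT, Scap by 0.48 (-0.03 to 0.98) and -0.34 (-0.52 to -0.16), Hmgcs1 by -0.41 (-0.81 to -0.01) and 0.22 (0.06 to 0.38), and Idi1 by -0.77 (-1.36 to -0.18) and 0.35 (0.05 to 0.64). Across the 31 genes the log2 fold change ran with GC content, with Pearson's r = 0.86 in HT and -0.86 in WT, next to 0.67 and -0.58 across all genes, as a description over genes that share libraries. After GC and length correction the 4 genes stood at 0.08, 0.20, -0.10 and -0.39 in HT and at -0.13, -0.12, 0.05 and 0.05 in WT. In HT the count depended on the model, with 15 genes when all 30 libraries shared 1 fit (5916 of all 17676 genes) and 5 with the replicate number as a block (1355 of 17676), both without the correction. Averaged over both genotypes, 0 of the 31 genes and 0% of all genes passed (0 of the 31 also without the vehicle libraries numbered 2), and unadjusted p was under 0.05 for 0 of the 31 and 1.48% of all genes (limma).

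**Figure D4:**
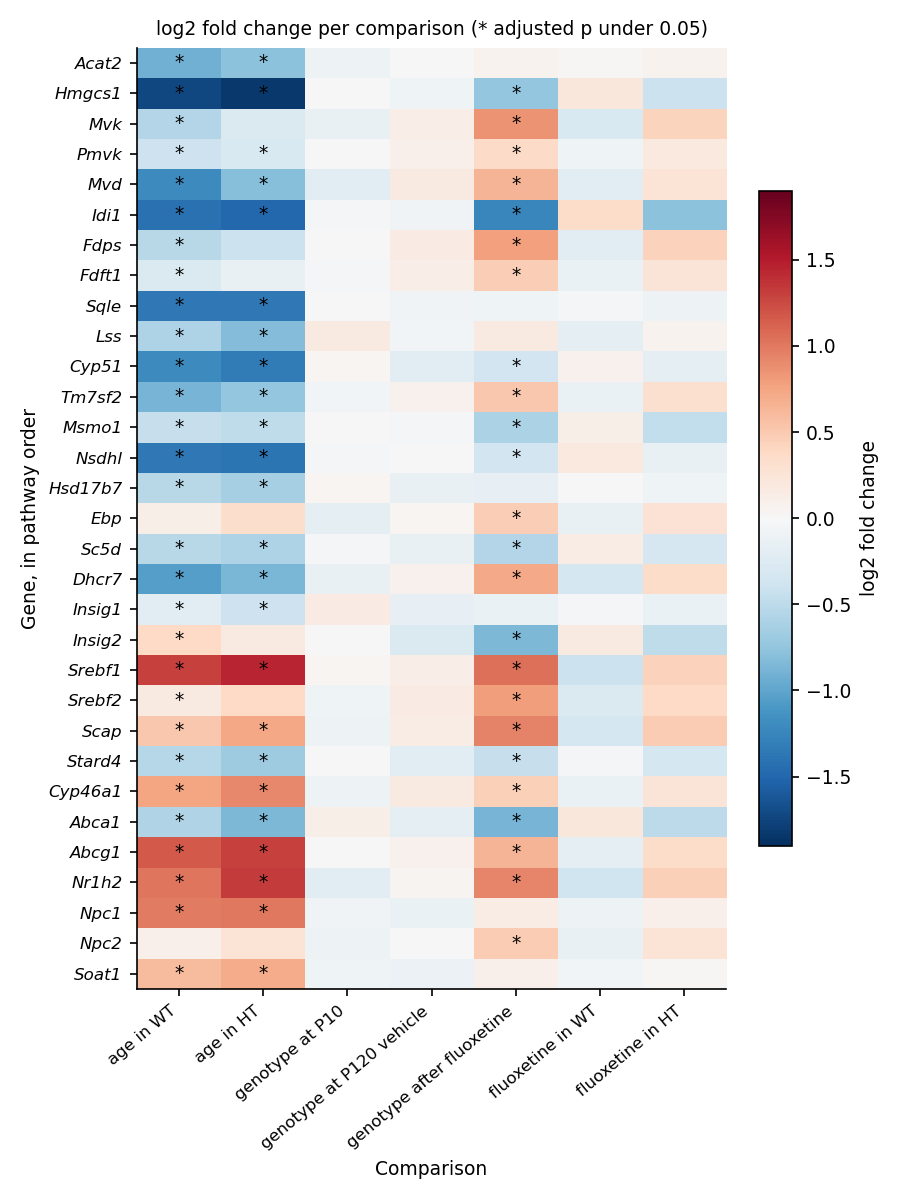
Log2 fold change of the 31 genes (rows, in pathway order) in 7 comparisons (columns), blue lower and red higher, with a star where the adjusted p is under 0.05. The stars fall in the age columns (29 in WT and 24 in HT) and in the column that compares the genotypes after fluoxetine (24), and in no other column.

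Between HT-Flx and WT-Flx, 15 of the 31 genes were higher in HT-Flx and 9 lower, against 63.7% of all genes (33.1% higher, 30.5% lower). The values of the 5 HT-Flx and 5 WT-Flx mice did not overlap for 19 of the 31 genes and for 48.5% of all genes, so neither share was far from that of the transcriptome. The split rested on the scaling. With libraries scaled to equal totals, which shifts the median of all genes by -0.249, 10 were higher and 12 lower (11100 of all 17816 genes). Corrected for GC and length, 11 were higher and 3 lower, against 37.5% of all genes. The summed normalized counts were 37083545 to 41522113 in the HT-Flx mice and 32484635 to 33588499 in the WT-Flx mice. Across the 31 genes the log2 fold change followed GC content with r = 0.88, next to 0.73 across all genes, again as a description.

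Srebf1 had values of 7020, 6285, 5002, 7462 and 4424 in the HT-Flx mice and 3186, 2582, 2529, 3283 and 2831 in the WT-Flx mice. These did not overlap, and the log2 fold change was 1.05 ± 0.14 (limma, adjusted p = 7.41e-05) before and 0.31 (adjusted p = 0.0139) after the correction. Scap was at 0.94 and 0.29 in the same way, and Nr1h2 at 0.93 and 0.22, all past the test both times. Srebf2, at 16886, 16132, 14264, 17627 and 12066 against 9036, 8676, 8101, 8759 and 9609, went from 0.79 ± 0.10 (limma, adjusted p = 5.87e-05) to 0.03 (adjusted p = 0.71). The GC content of Srebf1, Scap, Nr1h2 and Srebf2 transcripts was 59.1%, 58.6%, 60.9% and 59.4%.

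Idi1, the member with the lowest GC content at 40.9%, was at 367.6, 739.1, 480.0, 830.6 and 817.8 in the HT-Flx mice and 1393, 1287, 1422, 1662 and 1518 in the WT-Flx mice. The log2 fold change was -1.24 ± 0.21 (limma, adjusted p = 0.000242) before and -0.60 (adjusted p = 0.0129) after the correction, with no overlap in the deposited values. Insig2, which retains SCAP in the endoplasmic reticulum, kept more of its difference, at 607.6, 913.8, 733.6, 960.4 and 957.4 against 1436, 1430, 1482, 1613 and 1509. It was at -0.86 ± 0.13 (limma, adjusted p = 0.000103) before and -0.73 (adjusted p = 0.00144) after. Abca1 went from -0.88 to -0.46 and passed both times. Hmgcs1 (-0.73), Msmo1 (-0.60) and Sc5d (-0.56), lower before the correction, were at -0.14, -0.23 and 0.04 after it and did not pass.

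Some synthesis genes of middling GC content were also higher in HT-Flx. Fdps was at 3265, 2677, 2297, 2511 and 2330 in the HT-Flx mice and 1472, 1434, 1386, 1464 and 1848 in the WT-Flx mice, with a log2 fold change of 0.78 before and 0.58 after correction (limma, adjusted p = 0.0007). Dhcr7 was at 1578, 1395, 1471, 1635 and 1267 against 849.1, 895.5, 856.8, 897.7 and 948.7, with 0.72 before and 0.45 after (limma, adjusted p = 0.00139). Neither gene overlapped between the groups. Fdft1 (0.47 and 0.40), Ebp (0.47 and 0.32) and Npc2 (0.48 and 0.42) also passed both times. Lss, Npc1 and Soat1 passed only after the correction, at 0.53, 0.34 and 0.46, and before it their signs turned when libraries were scaled to equal totals. Mvk, Pmvk, Mvd, Tm7sf2, Abcg1 and Cyp46a1, which had been higher, and Cyp51, Nsdhl and Stard4, which had been lower, did not pass after it.

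**Figure D5:**
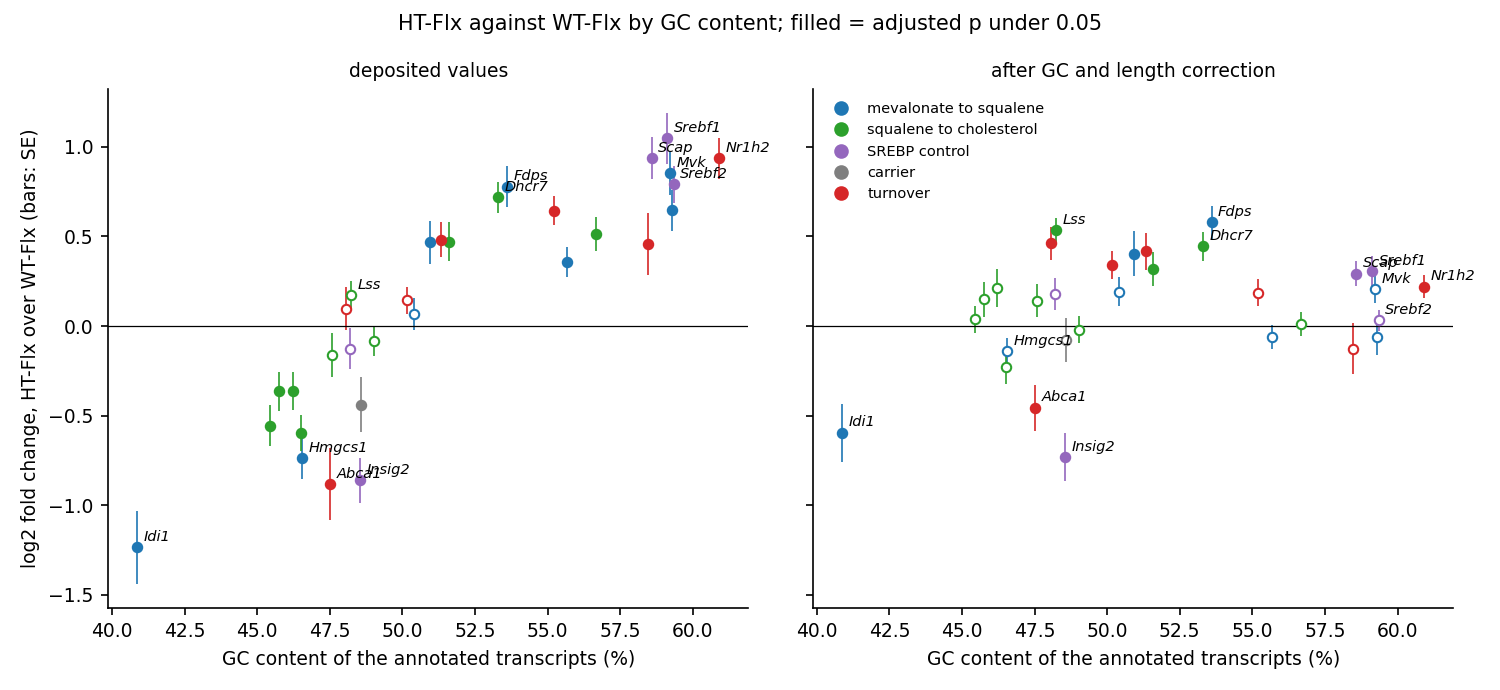
Log2 fold change of HT-Flx over WT-Flx (vertical, with SE, 5 mice per group) against the GC content of each gene's transcripts (horizontal, in percent), from the deposited values (left) and after GC and length correction (right), filled where the adjusted p is under 0.05. On the left the 31 genes climb with GC content from Idi1 (-1.24) to Nr1h2 (0.93), and on the right they lie between Insig2 (-0.73) and Fdps (0.58).

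Genes beside the route are set against the same 63.7% of all genes, or 37.5% with the correction. Of the 19 other transport genes, 11 were higher and 6 lower before and 6 and 2 after the correction. Abca2 went from 0.87 to 0.30, and Vldlr, a lipoprotein receptor, from -1 to -1.07, both past the test each time. Of the 11 fatty acid genes, 5 were higher and 1 lower before and 6 and 1 after. Fasn, fatty acid synthase, went from 0.95 to 0.23, and Fads2, a desaturase, from 0.76 to 0.51. Of the 9 non-sterol isoprenoid genes, 3 were higher and 4 lower before and 3 and 2 after, and of the 5 oxysterol enzymes 1 and 2 before and 1 and 0 after. The sum of oligodendrocyte and myelin markers was 261971 to 291719 in the HT-Flx mice and 189334 to 251300 in the WT-Flx mice. Of these 12 genes, 6 were higher and 4 lower before the correction and 2 and 0 after it. The 4 proliferation genes summed to 57.78 to 80.64 against 115.5 to 172.6, with 0 and 2 before and 0 and 1 after. The sums of the other marker lists overlapped. Astrocyte markers (7) had 3 and 3 both times, neuron markers (6) 4 and 2, then 1 and 2. Microglia (6) had 3 and 1, then 0 and 1, endothelium (4) 1 and 0, then 2 and 0, and erythroid genes (3) 2 and 0, then 0 and 0. The part of these differences in the sterol results was not tested.

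The interaction of genotype and fluoxetine, tested in the 20 P120 mice, passed for 13 of the 31 genes (9 higher, 4 lower), against 27.3% of all genes (15.8% higher, 11.5% lower). With libraries scaled to equal totals 4 were higher and 7 lower (4730 of all 17817 genes). After GC and length correction 0 of the 31 passed, as did 0% of all genes, and without the libraries labelled HT-Veh 2 and WT-Veh 2 the count was likewise 0. Leaving out single libraries moved it from 0 (0 of all genes) to 20 (7667 of all 17812 genes). Averaged over all 30 libraries, HT differed from WT in 10 of the 31 genes (6 higher, 4 lower), against 28.5% of all genes (13.8% higher, 14.7% lower). Without the vehicle libraries numbered 2 the count was 8 (4 higher, 4 lower), with 4024 of all 17969 genes. Scaling to equal totals gave 2 higher and 9 lower (5090 of all 17985 genes). After the correction 0 of the 31 genes and 1.16% of all genes passed. Without the correction, leaving out single libraries moved the count from 0 to 19, the latter with 7954 of all 17948 genes.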

How the data were processed

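Whole-brain poly-A RNA of 30 mice was sequenced as paired-end TruSeq libraries. The authors quantified transcripts with Salmon 1.1.0 against GRCm38, summed them to genes and normalized them with DESeq2 1.30.1. The deposited signal values are these normalized counts, which are not whole numbers, so that reads and depth are unknown and no counting interval is given. Strand use is not given in the sources used here.

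Groups follow the labels, 5 mice each. Values were tested as log2(value + 1) with limma 3.58.1 in R 4.3.3 (two-sided moderated test with an intensity trend), on genes with a mean of at least 10 over the libraries compared, with Benjamini-Hochberg adjustment over all tested genes at 0.05. Each comparison used only its own groups. The genotype comparison in vehicle mice used replicates 1, 3, 4 and 5. Intervals are 95% confidence intervals from the same fit. Nothing in the labels says that same-numbered mice were paired, and in no comparison did every same-numbered pair correlate above 0.1. For fluoxetine in HT, though, same-numbered pairs had a mean r of 0.18, from -0.02 to 0.41. Other pairs of that comparison had a mean r of -0.04. The GC and length correction subtracted, in each library, the mean deviation within 10 GC bins by 10 length bins. The scripts were tested on simulated data. Promoter letters came from RefSeq, GRCm38.p6.

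The 31 genes, the other pathway lists and the markers were chosen with earlier results of these data known. All 31 genes were eligible for naming, and for each other pathway list at most the 3 genes with the largest changes past the threshold in each direction. Alternatives covered the pseudocount, the low-value filter, scaling, the trend, the libraries fitted, a replicate block and leaving out each library. Some listed genes are not reported here. No value from the paper was used.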

Additional observations from a re-analysis of the deposited data

Results flagged for a closer look

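Of 186 sets of 5 mice, 1 per gene and group, 12 held a mouse that stood apart from the other 4 by Dixon's criterion. Independent normal values would give this in about 5% of such sets. The criterion was applied to untransformed values, and the share over all genes was not computed. Sets that share a library are not independent of one another. In 5 of the 12 the mouse was WT-Flx 5, with Hmgcs1 at 7487, Fdps at 1848, Fdft1 at 3168, Sqle at 2003 and Tm7sf2 at 657.3, each the highest of its group. P10 HT 1 stood apart for Pmvk at 1287 and Scap at 2937, P10 HT 4 for Fdps at 2705 and P10 HT 5 for Abcg1 at 1646. WT-Veh 3 stood apart for Abca1 at 1153 and Npc2 at 2558, and HT-Flx 5 for Lss at 1822.

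The fluoxetine effect differed between HT and WT mice for 13 of the 31 genes by the interaction term in limma, against 27.3% of all genes. On the log2 scale the difference, HT minus WT, was -0.63 for Hmgcs1, -1.12 for Idi1, -0.58 for Msmo1 and -0.65 for Insig2. It was 0.72 for Mvk, 0.65 for Fdps, 0.43 for Tm7sf2, 0.67 for Dhcr7, 0.85 for Srebf1, 0.66 for Srebf2, 0.82 for Scap, 0.51 for Abcg1 and 0.84 for Nr1h2. With GC and length correction 0 of the 13 passed the test, and without the libraries labelled HT-Veh 2 and WT-Veh 2 likewise 0.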

How the results depend on the processing

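Under other pseudocounts, filters, scalings and no trend, the number of genes past the test, both directions together, stayed within 1.5 times that reported in each of the 11 comparisons. Scaling to equal totals changed the split of higher and lower genes, from 15 and 9 to 10 and 12 after fluoxetine, from 9 and 4 to 4 and 7 in the interaction, and from 6 and 4 to 2 and 9 over all libraries. The age calls gave 27 to 28 genes in WT and 23 to 26 in HT when 1 library was left out. Of all genes, 9594 to 10707 passed in these fits in WT and 8128 to 10177 in HT. For the contrast of synthesis and turnover genes, leaving out 1 mouse gave -1.432 to -1.384, and a turnover group of Cyp46a1, Abca1, Abcg1 and Soat1 alone gave -1.305. Scaling to equal totals shifted the median of all genes by -0.106 for age in WT, -0.164 for age in HT and -0.123 for fluoxetine in HT.

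Fluoxetine in HT gave 15 genes with all 30 libraries in 1 fit (5916 of all 17676 genes) and 5 with the replicate number as a block (1355 of 17676), and fluoxetine in WT gave 0 to 3 when 1 library was left out (3 without WT-Veh 1, with 1400 of all 17852 genes, and 2 without WT-Veh 5, with 624 of 17864). The comparison of genotypes after fluoxetine gave 22 to 24 genes in those fits, with 10500 to 11521 of all genes. It gave 14 after GC and length correction (6649 of all 17728 genes) and 13 with the block added to it (5471 of 17728). The interaction of genotype and fluoxetine gave 0 genes after the correction, with the block added, and without the vehicle libraries numbered 2, with or without the correction. It ranged from 0 to 20 when 1 library was left out. It gave 0, with 0 of all genes, without HT-Flx 1, WT-Flx 2 or 3, HT-Veh 4 or 5, or WT-Veh 2, 3 or 4. It gave 7 without HT-Flx 3 (2291 of all 17811 genes) or WT-Flx 1 (2912 of 17782), and 20 without HT-Veh 1 (7667 of 17812). Genotype over all libraries gave 0 under each corrected setting and 0 to 19 when 1 library was left out. It gave 0 without any 1 WT-Flx library, HT-Flx 1, 2, 3 or 5, HT-Veh 1 or 3, or WT-Veh 1 or 5. Of all genes, 9 of 17948 passed without HT-Veh 3. It gave 16 without WT-Veh 3, and 17 without P10 HT 1 (6832 of all 17947 genes) or HT-Veh 5 (7380 of 17959). Without HT-Veh 4 it gave 19 (7954 of 17948). Why these counts moved was not tested. By the labels the same-numbered libraries share only a number, and the block moved no other count by over 1.5 times.

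Among genes past the test, signs turned only in settings with the correction. For age in WT, Srebf2 stood at -0.15, with or without the block, and at -0.18 without the vehicle libraries numbered 2, where Insig1 stood at 0.0227. After fluoxetine, with or without the block, Pmvk stood at -0.0613, Mvd at -0.0635, Cyp51 at 0.21, Nsdhl at 0.15, Sc5d at 0.0371 and Cyp46a1 at -0.13. In the interaction Tm7sf2 stood at -0.0079, and without the vehicle libraries numbered 2 at -0.0073, with Srebf2 at -0.0212. Over all libraries Pmvk stood at -0.0056, and at -0.0038 without those libraries, and Sc5d at 0.00079.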
